A study of Mus musculus with 15 samples.

Results

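Transcripts of 10 mouse genes that are known as markers of injury, failed repair or progenitor state in the kidney proximal tubule were followed in cultured tubule cells with and without Diet1. The genes were taken by symbol from a list (Vcam1, Icam1, Havcr1, Lcn2, Clu, Spp1, Cd24a, Prom1, Sox9 and Dcdc2a), and all 10 were found among 24421 listed genes and were abundant enough to be tested among 13912. The cells were primary proximal tubule cells, passaged once in culture, from kidneys of C57BL/6 mice of both sexes. They came from male Diet1 KO mice (n = 3 libraries), male WT mice (n = 4), female Diet1 KO mice (n = 4) and female WT mice (n = 4). The age of the mice and the design of the Diet1 allele are not given in the labels. Each group is 1 pool of cells from several mice, split into technical replicates according to the labels. Its libraries differ by technical spread, which is all that the p-values here cover, without mice or separate cultures. Diet1, now named Malrd1, encodes a protein of the small intestine and kidney that affects bile acid levels, and it was not analysed here.

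The proximal tubule takes up most of what the glomerulus filters and is the part of the nephron most exposed to toxic and ischaemic damage. Injured tubule cells lose their transport genes, re-express genes of the developing kidney and divide to close the gap. Cells that do not regain their transport function can stay in a failed-repair state, marked in mouse by VCAM1 and DCDC2A and by inflammatory signals. Primary tubule cells in culture are known to take on parts of this injury programme.

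Library totals were 19236579 to 21691796 counts in male KO, 17981749 to 30896637 in male WT, 17648416 to 22467773 in female KO and 18524614 to 24884801 in female WT. CPM is the count scaled to a common library size of 1e+06, here with TMM scaling. The lowest correlation of log2 CPM inside a group was 0.994, and the highest between groups was 0.993. Differentiated proximal tubule genes were scarce in every group. Of 40 such genes 24, 22, 22 and 23 averaged under 1 CPM in male KO, male WT, female KO and female WT, and the phosphate transporter gene Slc34a1 was without a count in all 7 KO libraries. The urate transporter gene Slc22a12 and the amino acid transporter gene Slc7a13 had no count in any of the 15 libraries.

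The 10 marker genes together took 1.37 ± 0.00854% of all counts in male KO, 1.51 ± 0.0705% in male WT, 1.24 ± 0.0328% in female KO and 1.63 ± 0.0426% in female WT (SD over libraries). In male KO cells 4 of the 10 genes were higher than in male WT cells and 2 were lower (adjusted p below 0.05 in edgeR's quasi-likelihood fit), where 20.2% of all genes tested were called, 10.1% higher and 10.1% lower. In female KO cells 3 were higher and 5 were lower than in female WT cells, where 39.3% of all genes were called, 20.7% higher and 18.6% lower. Groups did not overlap for 6 of the 10 genes in males, against 27.7% of all genes, and for 8 in females, against 36.1%. Scaled by library size alone, 39.9% of all called genes were higher in female KO, against 52.7% with TMM scaling. Among the 7690 genes averaging 20 CPM or more, a level that all 10 exceeded and that was chosen after the values were seen, 24.3% were called in males and 46.4% in females. The median log2 fold change of the 10 genes was 0.16 in males and -0.23 in females, against 0.00 for all genes tested in each sex. The genes therefore did not move as one group. The 2 adhesion molecule genes and Sox9 were higher in both KO pools, Clu and Spp1 were lower in both, Cd24a, Prom1 and Dcdc2a had KO effects that differed between the sexes, and Havcr1 and Lcn2 passed in neither sex.

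**Figure D1:**
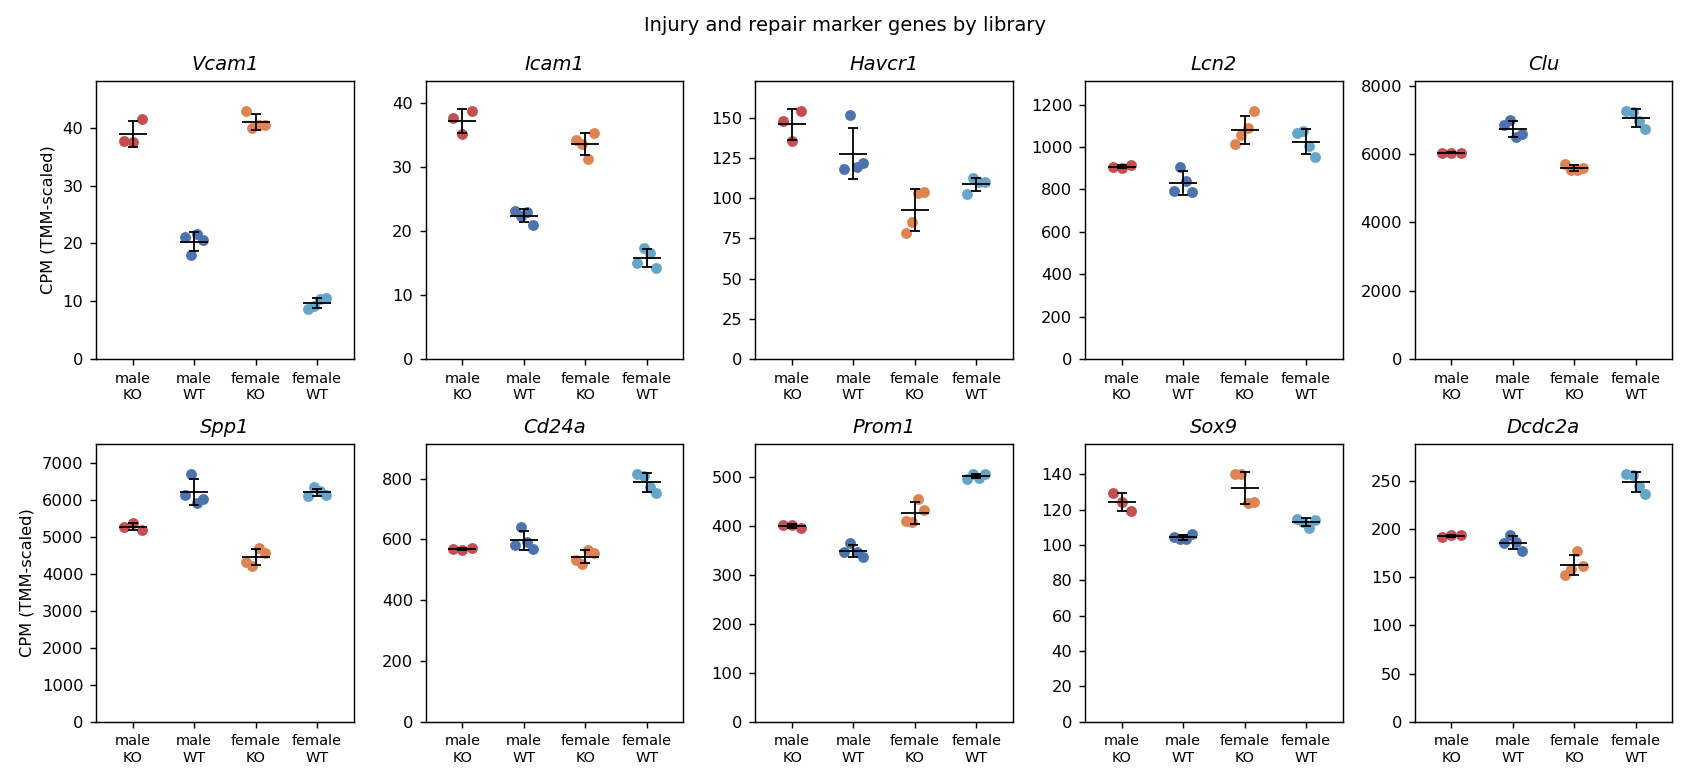
TMM-scaled CPM (y axis, from 0) of each of the 10 genes in every library (points), with the mean and SD of each group (bar and whiskers), for male KO, male WT, female KO and female WT. Vcam1 and Icam1 lie at 31.3 CPM or more in all 7 KO libraries and at 23.2 CPM or less in all 8 WT libraries.

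Vcam1 (GRCm38 chromosome 3, 116109949 to 116129688) encodes an adhesion molecule that binds the leukocyte integrin of ITGA4 and ITGB1, and it is a marker of tubule cells in failed repair. Its level was 37.7, 37.6 and 41.5 CPM in the male KO libraries, against 21.1, 17.99, 21.7 and 20.6 CPM in the male WT libraries. It was 43.0, 40.0, 40.6 and 40.5 CPM in the female KO libraries, against 8.72, 9.20, 10.3 and 10.6 CPM in the female WT libraries. The KO libraries of both sexes shared a narrow band, and KO and WT did not overlap in either sex. Vcam1 was 1.91-fold higher in male KO (log2 fold change 0.93 ± 0.062 SE, edgeR adjusted p = 1.14e-13) and 4.19-fold higher in female KO (2.07 ± 0.065, edgeR adjusted p = 9.49e-23). The female effect exceeded the male effect by 1.14 ± 0.092 on the log2 scale (edgeR adjusted p = 6.33e-11). Female KO and male KO pools differed by 0.07 ± 0.058 on the log2 scale (edgeR adjusted p = 0.548), whereas female WT was 2.09-fold lower than male WT (-1.07 ± 0.070, edgeR adjusted p = 4.30e-14). The difference between the 2 KO effects thus lay mainly between the WT pools. Sex cannot be told apart from the pool here, since each sex and genotype is 1 pool.

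Icam1 (chromosome 9, 21015985 to 21028817) encodes the adhesion molecule that binds the leukocyte integrins of ITGAL or ITGAM with ITGB2, and cytokines are known to induce it on tubule cells. It was at 37.6, 35.2 and 38.8 CPM in male KO, against 23.2, 22.4, 22.9 and 20.9 CPM in male WT. Female KO libraries had 34.2, 33.6, 31.3 and 35.4 CPM, against 15.05, 17.3, 16.6 and 14.15 CPM in female WT. The pattern over the 4 groups was close to that of Vcam1, with 2 similar KO pools and the lowest level in female WT. Icam1 was 1.66-fold higher in male KO (0.73 ± 0.061, edgeR adjusted p = 2.98e-11) and 2.14-fold higher in female KO (1.10 ± 0.061, edgeR adjusted p = 2.82e-16), and these effects differed by 0.37 ± 0.086 (edgeR adjusted p = 0.00237). Female WT was 1.43-fold lower than male WT (edgeR adjusted p = 6.67e-08), while the KO pools differed by -0.15 ± 0.059 (edgeR adjusted p = 0.125). In the annotation of GENCODE M21, exons of Vcam1, of Icam1 and of Prom1 each overlap an antisense gene on the other strand that is not listed in the table. The strand setting of the counting is not given in the sources used here, so reads of those genes cannot be told apart from these counts.

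The windows of 250 bases before the RefSeq start (build GRCm38.p6) were read for the 6 of the 10 genes that the promoter table holds, which are Lcn2, Prom1, Spp1, Icam1, Havcr1 and Dcdc2a, with 10 windows in all. They were searched on both strands for TGANTCA (AP-1), TTCNNNGAA (STAT) and GGGRNWYYCC (NF-kB). These motifs were present in 6.75%, 7.02% and 3.9% of all 32851 windows. TTCNNNGAA was present in the windows of Icam1, at positions -42 to -34 from the start, and of Dcdc2a, at -131 to -123. TGANTCA was present in both windows of Prom1, and GGGRNWYYCC had no match in the 10 windows. An NF-kB site that departs from these letters in any base would be missed, so the search cannot show that such sites are absent. The Icam1 and Dcdc2a windows are shown because they hold the same motif while Icam1 was higher and Dcdc2a lower in female KO. They are printed 5′ to 3′ with the motif in capitals, at chr9:21015690-21015939 on the plus strand and chr13:25055754-25056003 on the plus strand.
Icam1: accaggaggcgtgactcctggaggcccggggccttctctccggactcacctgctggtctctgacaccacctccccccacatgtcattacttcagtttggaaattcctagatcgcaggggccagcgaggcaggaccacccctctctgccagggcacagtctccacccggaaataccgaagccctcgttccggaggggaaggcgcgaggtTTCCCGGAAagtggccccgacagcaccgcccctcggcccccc
Dcdc2a: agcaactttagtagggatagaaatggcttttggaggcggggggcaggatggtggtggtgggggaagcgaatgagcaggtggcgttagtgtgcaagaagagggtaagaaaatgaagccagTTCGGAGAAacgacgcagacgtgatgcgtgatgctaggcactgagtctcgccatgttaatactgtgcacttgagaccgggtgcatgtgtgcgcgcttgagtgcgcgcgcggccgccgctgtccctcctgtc

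Vcam1 and Icam1 are known targets of NF-kB, a transcription factor held inactive by inhibitors such as the product of Nfkbia. Of 20 genes for NF-kB subunits, inhibitors and feedback proteins, 9 were higher and 1 lower in male KO (median log2 fold change 0.12). In female KO 14 were higher and 1 lower (median 0.28). The shares of all genes tested were 10.1% higher and 10.1% lower in male KO, and 20.7% and 18.6% in female KO. Nfkbia itself averaged 61.7 CPM in male KO and 48.2 CPM in male WT (0.35 ± 0.048, edgeR adjusted p = 7.17e-07). It averaged 61.6 CPM in female KO and 34.3 CPM in female WT (0.85 ± 0.046, edgeR adjusted p = 2.28e-16). Its KO pools were alike and its female WT pool was lowest, a pattern seen for Vcam1 and also for genes outside this list, such as Actb. Traf1, an adaptor of tumour necrosis factor receptors, rose by 0.41 ± 0.11 in male KO and 1.26 ± 0.12 in female KO on the log2 scale. The only lower gene in each sex was Nfkbiz, an atypical inhibitor, with -0.17 ± 0.042 in males and -0.39 ± 0.039 in females. The difference between the female and male effects passed the test for 8 genes of the list. The female effect was above the male effect for 7 and below it for 1, against 9.76% and 5.89% of all genes. Whether NF-kB had a part in the levels of Vcam1 and Icam1 was not tested.

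Of 14 genes for integrins and CD44 that bind VCAM1, ICAM1 or osteopontin, 13 were tested, with 2 higher and 6 lower in male KO and 7 higher and 1 lower in female KO. Among all genes tested 10.1% were higher and 10.1% lower in male KO, and 20.7% and 18.6% in female KO. Itga4, the leukocyte integrin chain that binds VCAM1, was a rare transcript at 2.74 CPM in male KO and 5.19 CPM in male WT (-0.90 ± 0.17, edgeR adjusted p = 1.75e-04), and at 2.95 CPM in female KO and 1.81 CPM in female WT (0.71 ± 0.19, edgeR adjusted p = 0.00304). Itga9, another integrin chain that binds VCAM1, fell by 1.03 ± 0.094 in male KO. Cd44, the hyaluronan and osteopontin receptor that injured tubules express, averaged 381 CPM in female KO and 222 CPM in female WT (0.78 ± 0.065, edgeR adjusted p = 5.21e-07). In males Cd44 averaged 363 CPM in KO and 330 CPM in WT and did not pass the test (edgeR adjusted p = 0.183). Rare leukocyte integrin genes were called as well. Itgam was 1.82 CPM in male KO and 0.821 CPM in male WT, and 4.57 CPM in female KO and 2.69 CPM in female WT. Itgal was 1.23 CPM in female KO and 0.463 CPM in female WT and was not called in males. In males more of these partner genes were lower than higher, while Vcam1 and Icam1 were higher. Of 14 genes for sheddases and other adhesion molecules, 8 were tested, with 1 higher and 3 lower in male KO. In female KO 2 were higher and 2 lower, which is near the shares of all genes called. Among them Alcam fell by 0.26 ± 0.040 in male KO and rose by 0.29 ± 0.037 in female KO.

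**Figure D2:**
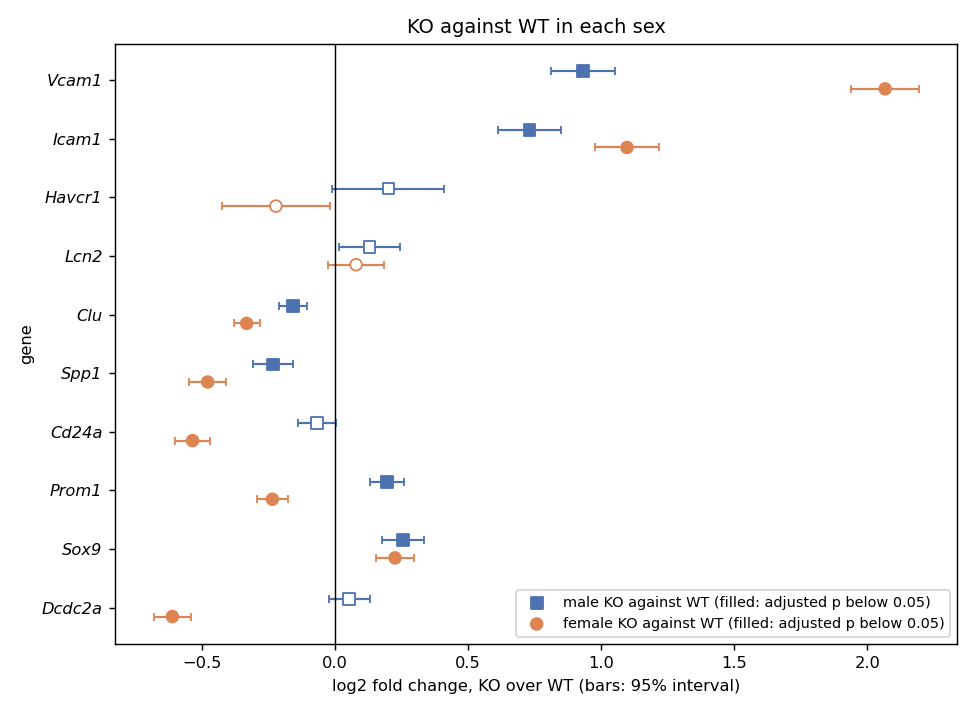
Log2 fold change of KO over WT (x axis) for each of the 10 genes (y axis), in males (squares) and females (circles), with bars for the 95% interval and filled symbols for an adjusted p below 0.05. Vcam1 and Icam1 stand to the right of the other 8 genes in both sexes, and Prom1 lies to the right of 0 in males and to the left in females.

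Havcr1 and Lcn2 encode the best known early markers of acute tubule damage, and neither passed the test between KO and WT. Havcr1 (chromosome 11, 46735080 to 46779578) encodes KIM-1, a receptor that lets injured tubule cells engulf dying neighbours. It was at 148, 136 and 154 CPM in male KO, against 118, 152, 119 and 122 CPM in male WT, and male WT replicate 2 lay inside the male KO range. In female KO it was at 78.5, 85.3, 104 and 104 CPM, against 103, 112, 110 and 110 CPM in female WT, and the groups overlapped. The log2 fold change was 0.20 ± 0.11 in males (edgeR adjusted p = 0.238) and -0.22 ± 0.10 in females (edgeR adjusted p = 0.115), and the difference between these did not pass (-0.42 ± 0.15, edgeR adjusted p = 0.0841). Without male WT replicate 2 the male value was 0.29 (edgeR adjusted p = 0.0462) and the difference was -0.52 (edgeR adjusted p = 0.0129). Havcr1 was 1.57-fold lower in female KO than in male KO (edgeR adjusted p = 0.00237).

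Lcn2 (chromosome 2, 32384633 to 32388252) encodes NGAL, a secreted protein that withholds iron from bacteria and appears in urine after tubule damage. It was at 907, 899 and 916 CPM in male KO, against 790, 906, 839 and 785 CPM in male WT. Levels in female KO were 1013, 1056, 1087 and 1170 CPM, against 1068, 1075, 1006 and 950 CPM in female WT. KO and WT overlapped in both sexes. The log2 fold change was 0.13 ± 0.059 in males (edgeR adjusted p = 0.154) and 0.08 ± 0.054 in females (edgeR adjusted p = 0.282). The 95% intervals ran from 0.014 to 0.24 in males and from -0.028 to 0.18 in females, within a change of 1.5-fold in either direction. In males the call depended on the setting, with edgeR adjusted p = 0.0249 without male WT replicate 2 and 0.0407 when the male libraries were fitted alone. Lcn2 was higher in female than in male pools, by 0.25 ± 0.059 between the KO pools (edgeR adjusted p = 0.0146) and 0.30 ± 0.054 between the WT pools (edgeR adjusted p = 8.10e-04).

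Of 9 genes for partners of NGAL and KIM-1, 8 were tested, with 0 higher and 3 lower in male KO and 1 higher and 5 lower in female KO. Among all genes tested 10.1% were higher and 10.1% lower in male KO, and 20.7% and 18.6% in female KO. Lrp2, or megalin, which takes up filtered NGAL, fell by 0.44 ± 0.076 in male KO and by 0.68 ± 0.074 in female KO on the log2 scale. Slc22a17, the proposed NGAL receptor gene, fell by 0.65 ± 0.12 and by 0.80 ± 0.10. Mmp9, whose gelatinase product forms a complex with NGAL, averaged 104 CPM in female KO and 31.2 CPM in female WT (1.73 ± 0.054, edgeR adjusted p = 2.50e-18). In males Mmp9 averaged 95.8 CPM in KO and 87.2 CPM in WT and did not pass (edgeR adjusted p = 0.0738), so that female WT was again the pool that stood apart.

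Transcripts of Clu and Spp1, which encode 2 secreted proteins that tubules release on injury, were lower in KO in both sexes. Clu (chromosome 14, 65968483 to 65981547) encodes clusterin, an extracellular chaperone. It was at 6041, 6020 and 6047 CPM in male KO, against 6863, 6997, 6514 and 6579 CPM in male WT. In female KO it was at 5707, 5549, 5533 and 5602 CPM, against 7268, 7244, 6963 and 6727 CPM in female WT. Every KO library lay below every WT library of its sex. Clu was 1.116-fold lower in male KO (-0.16 ± 0.027, edgeR adjusted p = 3.14e-05) and 1.26-fold lower in female KO (-0.33 ± 0.025, edgeR adjusted p = 4.83e-13), and the effects differed by -0.17 ± 0.036 (edgeR adjusted p = 6.54e-04).

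Spp1 (chromosome 5, 104435118 to 104441050) encodes osteopontin, a phosphoprotein that binds integrins and CD44 and inhibits crystal growth in urine. It was at 5261, 5370 and 5179 CPM in male KO, against 6132, 6709, 5921 and 6032 CPM in male WT. The female KO libraries had 4320, 4213, 4703 and 4552 CPM, against 6113, 6334, 6228 and 6128 CPM in female WT. The WT pools were at the same level, and both KO pools lay below them without overlap. Spp1 was 1.18-fold lower in male KO (-0.23 ± 0.038, edgeR adjusted p = 1.19e-04) and 1.39-fold lower in female KO (-0.48 ± 0.035, edgeR adjusted p = 7.71e-10), and the effects differed by -0.25 ± 0.051 (edgeR adjusted p = 0.00192). Spp1 differed between the KO pools, by -0.24 ± 0.038 in female KO against male KO (edgeR adjusted p = 1.33e-04), and by 0.00 ± 0.035 between the WT pools (edgeR adjusted p = 0.992). An annotated gene on the same strand shares exon sequence with Spp1 and is not listed in the table, so the Spp1 level is uncertain to that extent.

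Of the 4 markers of progenitor cells and repair, Cd24a and Dcdc2a shared a pattern, while Prom1 and Sox9 each had their own. Cd24a (chromosome 10, 43578284 to 43584265) encodes a small surface glycoprotein of nephron progenitors and scattered tubule cells. It was at 569, 566 and 572 CPM in male KO, against 583, 642, 593 and 570 CPM in male WT, and did not pass the test (-0.07 ± 0.036, edgeR adjusted p = 0.194). Female KO libraries had 532.5, 519, 565 and 557 CPM, against 817, 810, 772 and 753 CPM in female WT. Female WT stood above the 11 other libraries, and Cd24a was 1.45-fold lower in female KO (-0.54 ± 0.033, edgeR adjusted p = 2.50e-13). The difference between the effects was -0.47 ± 0.049 (edgeR adjusted p = 5.56e-08). An annotated gene of another name that is not listed in the table matches a Cd24a transcript at 96.8% identity over 218 bases, so the Cd24a level is uncertain to that extent. Prom1, Icam1 and Havcr1 also had matches to other genes, the overlapping antisense genes left out. The longest were 324 bases at 95.4% for Prom1, 163 at 95.1% for Icam1 and 125 at 95.2% for Havcr1. The same limit holds for their levels.

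Dcdc2a (chromosome 13, 25056004 to 25210706) encodes a doublecortin-domain protein of microtubules and cilia and is a mouse marker of failed repair beside Vcam1. It was at 191, 194 and 194 CPM in male KO, against 186, 193, 187 and 177 CPM in male WT, and did not pass the test (0.05 ± 0.039, edgeR adjusted p = 0.387). In female KO it was at 153, 159, 177 and 162 CPM, against 258, 256, 244 and 236 CPM in female WT. The pattern was that of Cd24a, with female WT above all other pools. Dcdc2a was 1.53-fold lower in female KO (-0.61 ± 0.036, edgeR adjusted p = 1.69e-14), and the effects differed by -0.67 ± 0.053 (edgeR adjusted p = 2.25e-10). Vcam1 and Dcdc2a, which mark the same failed-repair cells in mouse kidney, thus moved in opposite directions between female KO and female WT.

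Prom1 (chromosome 5, 43993620 to 44102032) encodes CD133, a membrane protein of progenitor and regenerating tubule cells. It was at 400, 402 and 395 CPM in male KO, against 345, 365, 347 and 337 CPM in male WT. Levels in female KO were 409, 407, 454 and 432 CPM, against 496, 506, 498 and 505 CPM in female WT. Male KO lay above male WT, and female KO lay below female WT, with no overlap in either sex. Prom1 rose 1.15-fold in male KO (0.20 ± 0.032, edgeR adjusted p = 1.95e-05), while in female KO it was 1.18-fold lower (-0.24 ± 0.030, edgeR adjusted p = 5.36e-08), and the effects differed by -0.43 ± 0.044 (edgeR adjusted p = 5.46e-09). It was the only one of the 10 genes called in opposite directions. The WT pools differed by 1.44-fold, higher in female WT (0.52 ± 0.030, edgeR adjusted p = 8.53e-16), and the KO pools by 0.09 ± 0.032 (edgeR adjusted p = 0.0668).

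Sox9 (chromosome 11, 112782224 to 112787760) encodes a transcription factor that surviving tubule cells switch on as they repair the epithelium. It was at 129, 124 and 119 CPM in male KO, against 104.5, 103, 103 and 106 CPM in male WT. In female KO it was at 140, 140, 124 and 124 CPM, against 115, 113, 109.5 and 114 CPM in female WT. All KO libraries lay above all WT libraries, also across the sexes. Sox9 was 1.19-fold higher in male KO (0.25 ± 0.040, edgeR adjusted p = 1.16e-05) and 1.17-fold higher in female KO (0.22 ± 0.037, edgeR adjusted p = 8.27e-06). The effects differed by -0.03 ± 0.055 (edgeR adjusted p = 0.796).

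**Figure D3:**
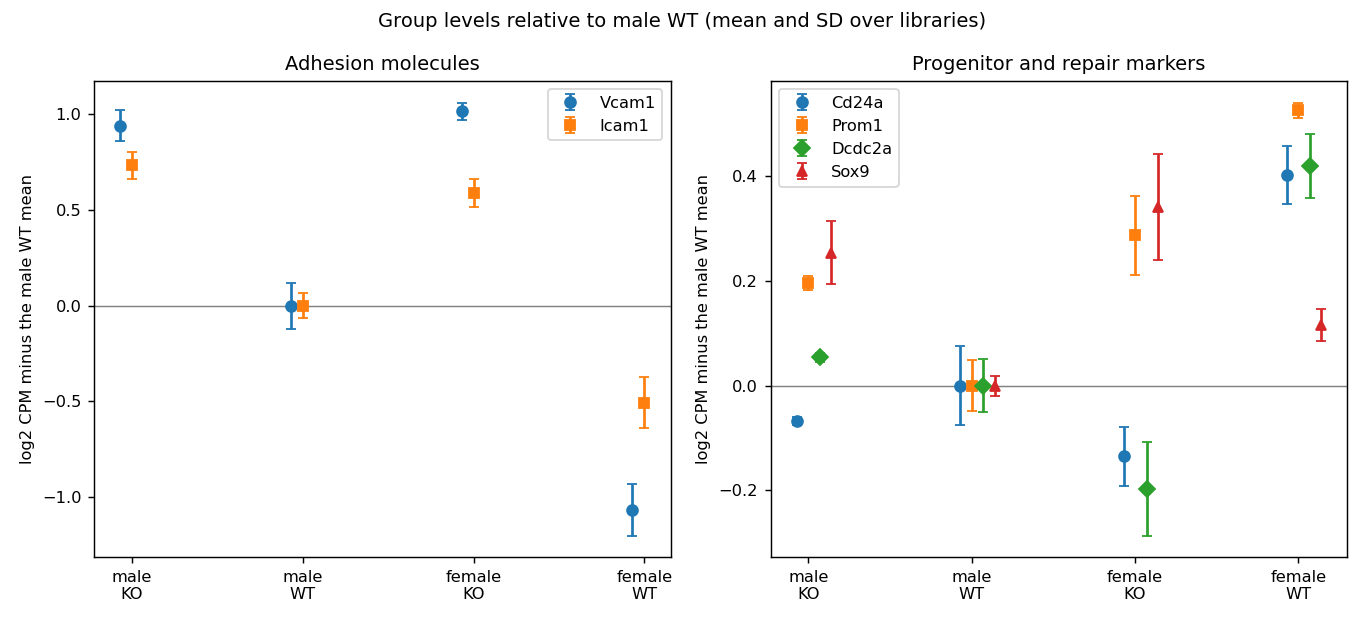
Log2 CPM minus the male WT mean (y axis) for the adhesion genes (left) and the progenitor and repair genes (right) in male KO, male WT, female KO and female WT, as mean and SD over libraries. Vcam1 and Icam1 are close in the KO pools and apart in the WT pools, while Cd24a, Prom1 and Dcdc2a are highest in female WT.

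The difference between the female and male KO effects passed for 7 of the 10 genes, 2 with a higher and 5 with a lower value in females, where 15.6% of all genes passed, 9.76% higher and 5.89% lower, and 19.9% of those with at least 20 CPM. Scaled by library size alone, 46.2% of all called differences were higher, against 62.4% with TMM. The WT pools of the sexes differed in 8 of the 10 genes, 6 higher and 2 lower in female WT (28.6% of all genes called, 12.6% higher and 16% lower). Scaled by library size alone, 55.2% of all genes called between the WT pools were higher in female WT, against 44.1% with TMM. The KO pools of the sexes differed in 5, 1 higher and 4 lower in female KO (9.2% of all genes called, 4.94% higher and 4.26% lower). Libraries of the sexes did not overlap for 8 of the 10 genes between the WT pools, against 27.5% of all genes, and for 7 between the KO pools, against 19.2%. Of the genes called between the WT pools, Clu had the smallest difference (0.07 ± 0.025, edgeR adjusted p = 0.0458), and its WT libraries overlapped.

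Ordered by level, Vcam1 was highest in female KO, then male KO, male WT and female WT, and only the 2 KO pools overlapped. Icam1 was highest in male KO, then female KO, male WT and female WT, and again only the KO pools overlapped. Clu and Spp1 had one order, female WT, male WT, male KO and female KO, in which only the WT pools overlapped. Prom1 ran from female WT over female KO and male KO to male WT with no overlap between neighbours. Cd24a and Dcdc2a had female WT first and female KO last, with the male pools overlapping each other between them. For Sox9 the order was female KO, male KO, female WT and male WT, and only the KO pools overlapped. For Havcr1 both male pools were above both female pools, and for Lcn2 both female pools were above both male pools, with overlap between KO and WT of each sex.

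Levels of different genes were compared as CPM per kilobase of exons annotated in GENCODE M21. Spp1 was the most abundant of the 10 in every group, at 3198 ± 58.2 CPM per kilobase in male KO, 3761 ± 213 in male WT, 2699 ± 134 in female KO and 3763 ± 62.1 in female WT. Clu followed at 1756, 1960, 1629 and 2051, and Lcn2 at 346, 317, 412 and 391 in the same groups. Cd24a came next in each group, between 211 and 306. The 2 adhesion genes were the least abundant, with Icam1 at 8.54 in male KO, 5.13 in male WT, 7.71 in female KO and 3.62 in female WT, and Vcam1 at 4.39, 2.29, 4.62 and 1.10. The genes with the largest fold changes were therefore those with the lowest levels per length, while Spp1 and Clu, the most abundant, fell and Lcn2 did not pass the test.

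Other genes of tubule injury and failed repair, from a list of 50 of which 49 were tested, were higher more often than lower. In male KO 23 were higher and 8 lower (median log2 fold change 0.12), and in female KO 30 were higher and 9 lower (median 0.28), with medians of 0.00 over all genes. Of all genes tested, 10.1% were higher and 10.1% lower in male KO, and 20.7% and 18.6% in female KO. The 9 lower genes in female KO were near that last share. Krt20, a keratin of injured tubules, averaged 53.5 CPM in male KO and 37.6 CPM in male WT (0.51 ± 0.047), and 55.2 CPM in female KO and 27.5 CPM in female WT (1.01 ± 0.046). Krt19 rose by 0.48 ± 0.032 in male KO and by 0.47 ± 0.030 in female KO. Among the lower members, Cp, or ceruloplasmin, fell by 0.59 ± 0.055 in male KO and by 1.09 ± 0.048 in female KO. Timp1, a metalloprotease inhibitor, fell by 0.66 ± 0.064 in male KO and by 0.17 ± 0.059 in female KO. The complement gene C3 fell by 0.52 ± 0.083 in male KO and by 0.45 ± 0.077 in female KO. The difference between the sexes passed the test with the female effect above the male effect for 22 genes of the list, and below it for 6. Among all genes tested these shares were 9.76% and 5.89%.

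Of 21 chemokine and cytokine genes of injured tubules 18 were tested, with 10 higher and 1 lower in male KO (median 0.20) and 11 higher and 3 lower in female KO (median 0.36). Of all genes tested, 10.1% were higher and 10.1% lower in male KO, and 20.7% and 18.6% in female KO. The chemokine and cytokine genes named here were rare transcripts. The neutrophil chemokine gene Cxcl1 averaged 5.90 CPM in male KO and 3.06 CPM in male WT (0.93 ± 0.13), and Cxcl2 averaged 3.92 and 2.52 CPM in these groups. Both rose in female KO as well, Cxcl1 by 0.88 ± 0.14 and Cxcl2 by 0.66 ± 0.16 on the log2 scale. In females Cxcl10, which attracts T cells, averaged 8.59 CPM in KO and 2.87 CPM in WT (1.60 ± 0.12), and Ccl2, which attracts monocytes and is made by tubule cells in failed repair, 5.09 CPM in KO and 2.07 CPM in WT (1.31 ± 0.14). In male KO the change was 0.30 ± 0.10 for Cxcl10 (edgeR adjusted p = 0.0331) and 0.14 ± 0.12 for Ccl2 (edgeR adjusted p = 0.488). The cytokine gene Il6 fell by 0.93 ± 0.17 in male KO and by 0.47 ± 0.19 in female KO. All 38 cell cycle genes were tested, with 33 higher and 0 lower in male KO (median 0.36) and 38 higher and 0 lower in female KO (median 0.79), among them Birc5 (0.62 ± 0.076 in males) and Plk1 (1.01 ± 0.049 in females). The shares of all genes are those given above for the chemokine list. Of 40 differentiated proximal tubule genes 19 were tested, with 2 higher and 2 lower in male KO (median 0.01) and 3 higher and 3 lower in female KO (median 0.02), which is near the shares of all genes called. Ggt1, a brush border enzyme, fell by 0.37 ± 0.063 in male KO and by 0.95 ± 0.057 in female KO.

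**Figure D4:**
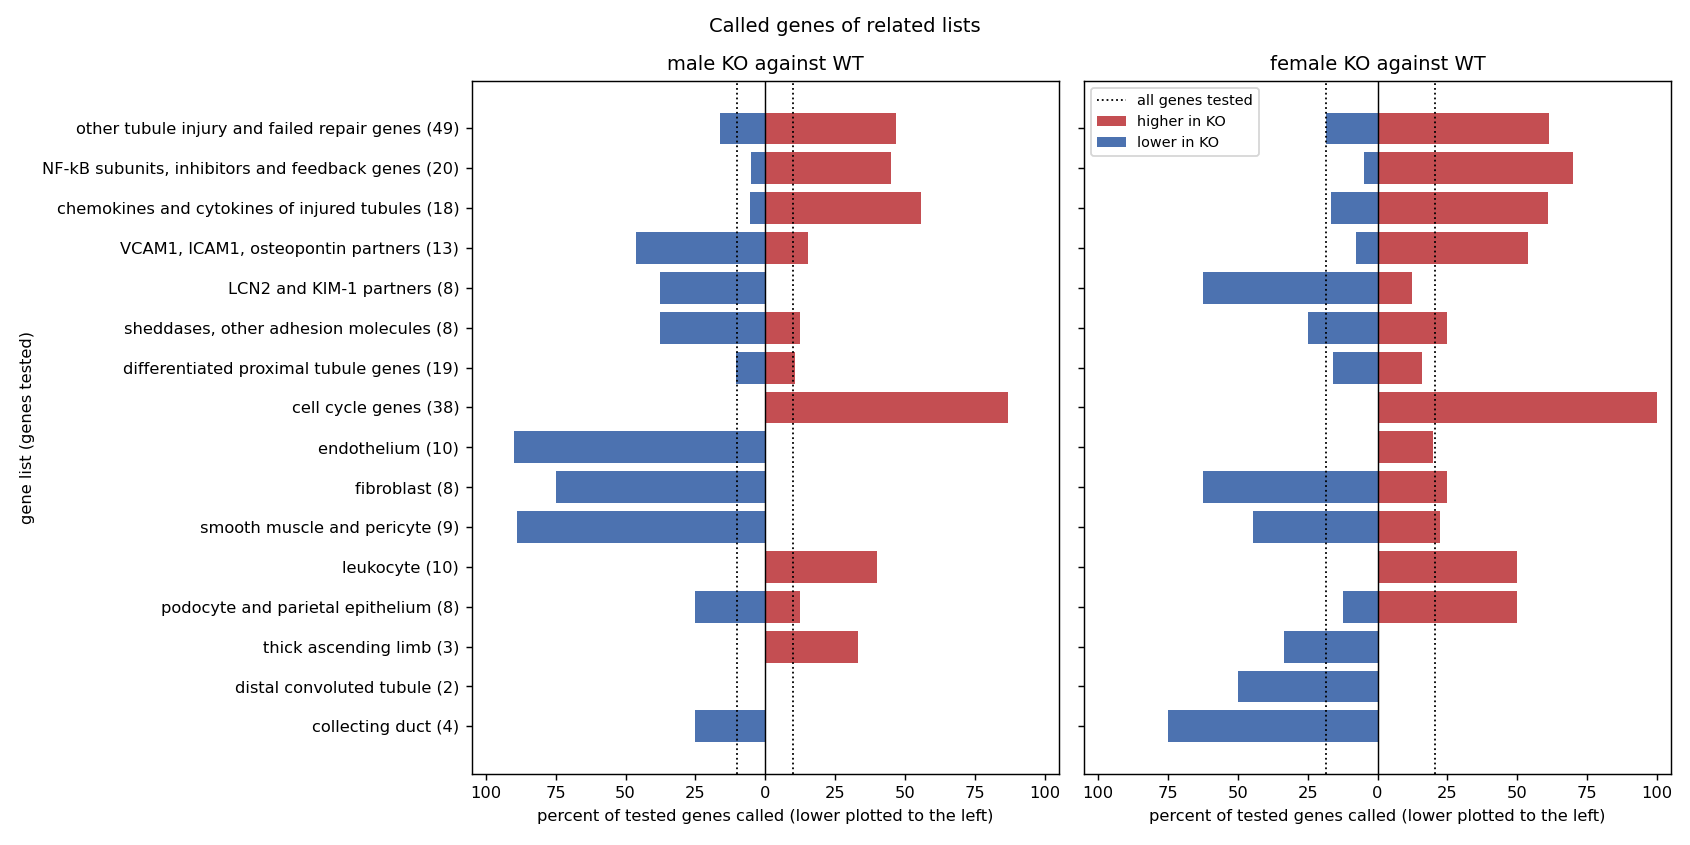
Percent of the tested genes of each list (y axis, number tested in brackets) called higher (right) or lower (left) in KO, for males and females, with dotted lines at the percent of all genes called in that direction. Injury, NF-kB and chemokine lists have more genes higher than lower in both sexes, while endothelial markers have 9 lower genes in males and 2 higher genes in females.

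Vcam1 and Icam1 are also made by endothelial cells and leukocytes, and markers of these cells moved between the pools. In bulk RNA, fewer cells of a type and less RNA per cell cannot be told apart. Among all genes tested 10.1% were higher and 10.1% lower in male KO, and 20.7% and 18.6% in female KO. The summed level of 10 endothelial genes was 40.1 to 45.0 CPM in male KO and 84.9 to 91.5 CPM in male WT, with 9 genes lower and 0 higher, and none of the 10 was without counts in a group. In females it was 39.0 to 50.6 CPM in KO and 34.9 to 41.8 CPM in WT, with 2 higher and 0 lower. The 2 higher genes were near the share of all genes. Vcam1 and Icam1 were higher in KO in both sexes, while the called endothelial genes were lower in male KO and higher in female KO. The summed level of 12 leukocyte genes was 35.4 to 37.5 CPM in male KO and 23.3 to 28.2 CPM in male WT, and 52.1 to 64.1 CPM in female KO and 37.7 to 46.6 CPM in female WT. Of 10 leukocyte genes tested, 4 were higher and 0 lower in male KO and 5 were higher and 0 lower in female KO, and only Cd3e in female KO had no count in a group. The part of endothelial cells and leukocytes in the levels of Vcam1 and Icam1 was not tested.

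Fibroblast genes, 8 tested of 10, had 0 higher and 6 lower in male KO and 2 higher and 5 lower in female KO, with summed levels of 1789 to 1977 CPM in male KO, 3428 to 3664 CPM in male WT, 2548 to 2777 CPM in female KO and 3566 to 3841 CPM in female WT. Smooth muscle and pericyte genes had 0 higher and 8 lower of 9 in male KO and 2 higher and 4 lower in female KO, with sums of 2746 to 2822, 3269 to 3593, 3554 to 4116 and 3623 to 3673 CPM in the same 4 groups. Podocyte and parietal epithelial genes had 1 higher and 2 lower of 8 in male KO and 4 higher and 1 lower in female KO, with sums of 673 to 704, 673 to 717, 570 to 610 and 512 to 534 CPM.

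Spp1, Clu, Cd24a and Prom1 are also expressed by distal parts of the nephron, and most of the markers listed for these parts were scarce. Of 5 thick ascending limb genes 4 averaged under 1 CPM in each group, and their summed level was 3.01 to 4.16 CPM in male KO, 2.40 to 4.08 CPM in male WT, 2.596 to 4.34 CPM in female KO and 3.29 to 4.84 CPM in female WT. Of 3 tested, Cldn16 was higher in male KO (0.72 ± 0.21) and Umod was lower in female KO (-1.44 ± 0.38). Neither was called in the other sex. Distal convoluted tubule genes, 2 tested of 5, summed to 28.2 to 28.5, 29.2 to 34.6, 19.7 to 25.0 and 33.1 to 36.6 CPM in these groups, nearly all of it Trpm6, with Pvalb at 0 throughout and 1 gene lower in female KO. Collecting duct genes, 4 tested of 10, summed to 28.9 to 32.0, 39.1 to 44.6, 29.2 to 34.0 and 34.6 to 40.5 CPM, with 1 gene lower in males with KO and 3 lower in females with KO. Most of that sum was Hsd11b2, at 25.2 CPM in male KO, 35.0 in male WT, 27.4 in female KO and 27.3 in female WT. Among all genes tested 10.1% were higher and 10.1% lower in male KO, and 20.7% and 18.6% in female KO. The water channel gene Aqp2 had no count in any group but male WT, and Slc4a1 had none in any group. The part of these cells in the results was not tested.

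For each of the 10 genes the 2 genes with the most similar pattern were sought over the 15 libraries, by Pearson correlation of log2 CPM among genes averaging 5 CPM or more. Libraries of a pool share their cells, so the 15 points are not independent and the correlations describe 4 pools. Vcam1 was closest to Actb, the cytoplasmic actin (r = 0.996), and to Wdr1, an actin disassembly factor (r = 0.993). Actb averaged 8047 CPM in male KO, 6587 CPM in male WT, 8002 CPM in female KO and 5335 CPM in female WT, the order of Vcam1 but for the KO pools. Icam1 was closest to Trim16 (r = 0.984) and to Kif23, a kinesin of cell division (r = 0.983). Spp1 was closest to Serpinb6b (r = 0.986) and Kcnj16, a potassium channel gene (r = 0.971), and Clu to Pcsk5, a proprotein convertase (r = 0.964). Cd24a was closest to Klhl7 (r = 0.979) and B4galt6 (r = 0.978), Dcdc2a to Wwc1 (r = 0.971) and Bicc1, a gene of cystic kidney disease in mouse (r = 0.970), and Prom1 to Ppp2r2c (r = 0.965) and the tight junction gene Cldn19 (r = 0.957). Sox9 (Pld2 and Ybx1, r = 0.936 and 0.934), Lcn2 (Gcnt2 and Ptgfrn, r = 0.952 and 0.939) and Havcr1 (Scin and Fam65b, r = 0.945 and 0.933) had the lowest values.

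When the 4 pools were taken as the units, with counts summed per pool and 1 residual degree of freedom, 0 of the 10 genes passed (edgeR, lowest adjusted p = 0.137), and 1 of all 13912 genes did (0.00719%). At an unadjusted p below 0.05, 4 of the 10 genes stood apart between KO and WT over both sexes, where 17.7% of all genes did. These were Icam1 (0.91 ± 0.11, edgeR adjusted p = 0.137), Sox9 (0.24 ± 0.044, edgeR adjusted p = 0.142), Vcam1 (1.48 ± 0.29, edgeR adjusted p = 0.163) and Spp1 (-0.35 ± 0.11, edgeR adjusted p = 0.222). With library size as the only scaling Icam1 passed (adjusted p = 0.0176), as did 268 of all genes.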

How the data were processed

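The table the authors deposited holds raw counts, as whole numbers, for every gene symbol and library. Per the submitters' processing notes the tools were STAR 2.6.1, featureCounts without a version, edgeR 3.26.8 and limma 3.40.6, with build mm10. The gene annotation and strand setting are not given in the sources used here, and the libraries were strand-specific per the labels' protocols. A second deposited table, of CPM, was not used.

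The software used here was edgeR 4.0.16 under R 4.3.3. After filterByExpr (count of at least 10, total of at least 15) and TMM scaling, all 4 groups entered 1 robust quasi-likelihood fit. The threshold was a Benjamini-Hochberg adjusted p of 0.05 over all genes of a comparison. Standard errors are the log2 fold change over the square root of F, and 95% intervals follow from them. The root of the common dispersion, which is the variation beyond counting noise shared over genes, was 3.59%. No 2 libraries of a group were identical. Replicate numbers are not said to pair anything, and no block was used. The fit was tested on simulated data.

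The genes, lists, naming rule and tests were chosen with earlier results of these data known. From each list, up to 2 called genes per direction and sex with the largest fold were eligible to be named. Genes outside this rule, such as Cd44 and Mmp9 in males, Itga4 in females, the other sex for some named genes and markers without a count, were chosen after their values were seen. Lists share some genes, and none was given a set test. The second gene most similar to Clu is not reported here. At the depths found, 3 counts correspond to 0.0971 to 0.170 CPM. Positions and exon lengths are from GENCODE M21 (GRCm38, the build mm10 names), promoter windows from RefSeq (GRCm38.p6), and similar transcripts (at least 95% identity over 100 bases) from blastn 2.17.0. Alternatives used limma 3.58.1 and DESeq2 1.42.0.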

Additional observations from a re-analysis of the deposited data

Results flagged for a closer look

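The effect of KO differed between the female and male pools for 7 of the 10 genes by the test of the difference itself (log2 scale, female minus male, edgeR adjusted p below 0.05). The differences were 1.14 for Vcam1, 0.37 for Icam1, -0.17 for Clu, -0.25 for Spp1, -0.47 for Cd24a, -0.43 for Prom1 and -0.67 for Dcdc2a. Each rests on 4 pools, so sex and pool cannot be told apart.

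Havcr1 in male WT replicate 2 was at 151.7 CPM, against 118.2 to 121.8 CPM in the other 3 male WT libraries. Of 30 gene and group combinations with 4 libraries examined in this way, this was the only 1 in which a library stood apart, and about 1 in 20 does so by chance.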

How the results depend on the processing

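The 50 results for single genes (10 genes in 5 comparisons) were recomputed 940 times under other settings, of which 887 kept direction and side of the threshold, 40 lost the call, 8 gained one and 5 reversed. The 5 reversals were all Spp1 in female WT against male WT, a value of 0.00 that became -0.0016 without male WT replicate 1, -0.021 without replicate 3, -0.0066 without replicate 4, -0.0096 without female WT replicate 2 and -0.0013 without replicate 3, and that reached 0.046 without male WT replicate 2. Against a fold of 1.5 (glmTreat), 1 of the 10 genes was called in males, 2 in females, 1 for the difference, 0 between the KO pools and 1 between the WT pools, and of all genes 81, 274, 44, 24 and 218. On pool sums, 1 of the 10 genes was called with library size as the only scaling, against 0 with TMM and 0 with DESeq2 size factors. The cause was not tested. Leaving out 1 library gave 6 to 8 called genes of the 10 in males, 8 in females, 7 to 8 for the difference, 4 to 6 between the KO pools and 6 to 8 between the WT pools. The gains in males were Havcr1 and Lcn2 without male WT replicate 2. With the replicate block 6, 8, 7, 6 and 8 of the 10 genes were called, against 6, 8, 7, 5 and 8, the gain being Prom1 between the KO pools (0.09, adjusted p = 0.0438). Deviations of same-numbered libraries of different groups correlated between -0.028 and 0.17 (median 0.030), and those of differently numbered ones between -0.11 and 0.071 (median -0.0055). Of the 15 libraries 10 correlated best with their own number, a hint from the data that the labels do not state as a pairing. DESeq2 called Havcr1 for the difference (adjusted p = 0.0418) and not Clu between the WT pools (adjusted p = 0.0612), whose call was lost in 9 of 18 settings.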
